A study of Homo sapiens with 6 samples.

Results

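Tandem acceptors are neighbouring 3′ splice sites that compete for the same 5′ splice site, and those described here lie exactly 3 nt apart. They were found in splice junction tables of K562 cells as pairs of junctions with the same chromosome, strand and 5′ splice site. Members were chosen by distance and by read counts: the 2 junctions together needed at least 20 uniquely mapped reads in each of the 6 libraries, and each site at least 10 reads over all of them. Of 5684 pairs of competing acceptors at most 100 nt apart that met these minimums, 1029 were 3 nt apart. They used 1006 different acceptor pairs, because 20 acceptor pairs were joined to more than 1 of the 5′ splice sites. The depth of the members is therefore not a result. The value followed throughout is the upstream share, the percentage of a pair's reads that used the upstream acceptor, the one nearer to the 5′ splice site.

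An intron ends in AG, and in the last step of splicing the exon is joined just behind that AG. Where a second AG follows directly after one more base, the sequence has the form NAGNAG and the spliceosome can stop at either AG. Use of the downstream AG then drops 3 nt, the length of a codon, from the mRNA and keeps the reading frame of a coding exon. The small U2AF subunit U2AF1 contacts the AG and the base before it early in spliceosome assembly. S34F exchanges serine for phenylalanine in a zinc finger of U2AF1 and is a recurrent mutation in myelodysplastic syndromes and acute myeloid leukaemia. It is known for altering the preference for that base.

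K562, an established line, was derived from a human chronic myeloid leukaemia. The controls were 3 libraries of cells labelled as a U2AF1 wild-type knock-in, and 3 further libraries were labelled U2AF1 S34F. The labels do not say how many clones were used or whether the libraries came from separate cultures, and p-values then measure only the spread between these libraries. The series concerns missplicing by mutant SF3B1, another splicing factor, and the comparison made here asks which acceptor was chosen in S34F and in wild-type cells. Summed over all junctions, the libraries held uniquely mapped read counts from 18074706 to 39279169, with S34F replicate 2 the shallowest and S34F replicate 3 the deepest. A read across several junctions counts at each of them. Between 1.61% and 1.67% of these counts fell on the 3 nt pairs, from 301129 to 657675 in a library. Positions are those of hg19, the build named in the submitters' processing notes. Those of acceptors give the last base of the intron, and those of 5′ splice sites its first base. Genes, exons, untranslated regions, the bases before each AG and the marker genes of K562 cells were not analysed here, because no sequence or annotation of that build was used. The motif codes in the tables show that each of the 1029 members has AG at both acceptors: 1022 were GT-AG introns and 7 GC-AG introns.

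The upstream acceptor was the more used site in 767 of the 1029 pairs, or 74.5%. The median upstream share in wild type was 85.99%, with the middle 50% of the pairs between 48.2% and 96.5%. Library by library, the wild-type medians were 87.2%, 85.4% and 85.7%, and the S34F medians 86.8%, 86.7% and 86.7%. The mean share over the pairs was 71.1%, 69.7% and 69.6% in the wild-type libraries, next to 69.8%, 71.0% and 71.0% in those of S34F. Both groups overlapped in both measures. The lesser site took a median of 8.58% of the pooled reads. It took at least 5% in 649 pairs and under 1% in 87.

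Annotation, which the choice of members did not use, went with the level. Both sites were annotated in 511 pairs, and their median upstream share in wild type was 68.9%. In 255 of these, or 49.9%, the lesser site took at least 20% of the reads. Only the upstream site was annotated in 420 pairs, with a median share of 96.8%. Only the downstream site was annotated in 90 pairs, with a median share of 5.77%. Neither was annotated in 8 pairs. Thus the unannotated site was mostly the rare one, yet it took 20% or more of the reads in 39 of the 510 pairs with 1 annotated site. The largest overhang, the reach of a read past the junction, had a median of 49 nt over the 526 unannotated sites. It was under 20 nt at 1 of them, where it was 19 nt.

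**Figure D1:**
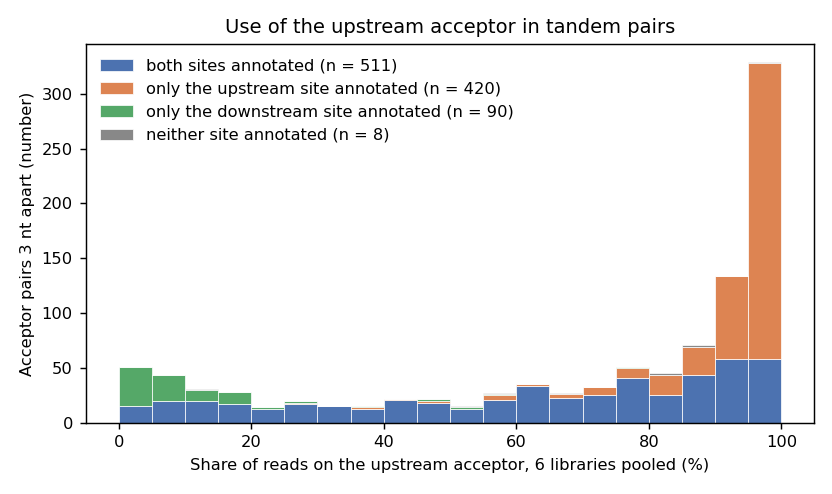
Number of acceptor pairs 3 nt apart (vertical axis) by the percentage of pooled reads on the upstream acceptor (horizontal axis, bins of 5 percentage points), stacked by the annotation of the junctions to the 2 sites. The 420 pairs with only the upstream site annotated pile up near 100%, the 90 with only the downstream site annotated near 0%, and the 511 pairs with both annotated spread over the whole range.

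Pairs of other distances were set beside them under the same read minimums. The lesser site took at least 20% of the pooled reads in 297 of the 1029 pairs at 3 nt, or 28.9%. This share was 4.72% of 381 pairs at 4 nt, 7.86% of 560 pairs at 5 to 9 nt and 7.74% of 3643 pairs at 10 to 100 nt. Counted per library as pairs with an upstream share of 20 to 80%, it was 28.7% ± 0.57 in wild type, against 28.8% ± 0.46 in S34F at 3 nt (mean ± SD, n = 3 each). At 4 nt it was 4.72% ± 0.52 and 4.64% ± 0.40. The lowest library at 3 nt, at 28.1%, lay above the highest at any other of these distances, at 9.55%. Pairs are not replicates, and the difference between distances was not tested. The upstream acceptor was the more used site in 93.2% of pairs at 4 nt and 60.2% of pairs at 10 to 100 nt.

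**Figure D2:**
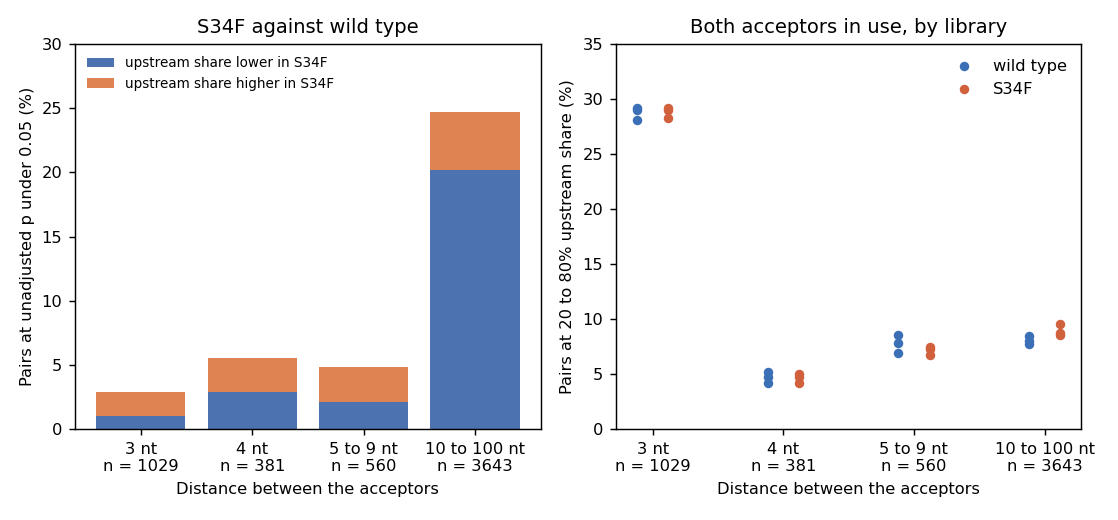
Left, percentage of acceptor pairs with an unadjusted p under 0.05 in S34F against wild type, by the distance between the acceptors and stacked by direction; right, percentage of pairs with an upstream share of 20 to 80% in each of the 3 wild-type and 3 S34F libraries. Pairs 3 nt apart stand at 2.92% on the left, against 24.7% at 10 to 100 nt, and between 28.1% and 29.2% in the 6 libraries on the right.

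Among deeply covered pairs, several used both AGs about equally. The 3 with at least 200 reads in each library and a wild-type mean nearest to 50% all had both sites annotated. On the plus strand of chromosome 10, in an intron of 111 nt, the acceptors at 103916942 and 103916945 were joined to the 5′ splice site at 103916832. Their upstream share was 51.9%, 50.4% and 43.8% in wild type, against 45.4%, 49.9% and 48.8% in S34F, with 377 to 1133 reads per library. The groups overlapped, and the log2 odds changed by -0.04 (SE 0.20; adjusted p = 0.966 from edgeR). The pair on the plus strand of chromosome 15 at 41657599 and 41657602 had 54.2%, 48.9% and 53.3% in wild type, compared with 57.0%, 53.5% and 51.95% in S34F (log2 odds 0.12, SE 0.21, edgeR adjusted p = 0.872). Neither pair thus differed by more than the spread between libraries.

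The most read pairs were almost all-or-none. The 6 with the most reads had from 73494 to 145362 of them, and 5 of these had an annotated upstream site beside an unannotated downstream one. On the minus strand of chromosome 19, at 39926349 and 39926346, the downstream site took 65, 49 and 64 reads in wild type, against 54, 56 and 81 in S34F. The upstream share was 99.55% ± 0.065 in wild type, against 99.50% ± 0.026 in S34F (n = 3 each), with overlapping libraries. The opposite order was seen on the minus strand of chromosome 11 at 118888259 and 118888256. There the unannotated upstream site had 1, 2 and 2 reads in wild type, compared with 1, 3 and 3 in S34F, against 12827 to 21197 on the downstream site. A pair enters with 10 pooled reads on a site at any depth, so that such sites are rare events at deeply read introns.

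The same tandem acceptors could be used differently from different 5′ splice sites. In 20 acceptor pairs, more than 1 of the 5′ splice sites met the minimums (17 had 2 and 3 had 3). The gap between the lowest and the highest upstream share had a median of 9.45 percentage points in wild type and 4.28 in S34F. Each gap was taken within its group, so it cannot be negative and grows with counting error. The difference in gap between genotypes was not tested. Between the splice sites with the lowest and the highest wild-type mean, the order was the same in each library in 9 of the 20. In 7 of the 20 the values from one did not overlap those from the other over the 6 libraries. These ends were picked by the same values, so the counts are a description.

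The widest gap was on the plus strand of chromosome 14, at the acceptors 23299258 and 23299261. From the 5′ splice site at 23299150 the upstream share was 62.0%, 55.2% and 52.1% in wild type, against 54.8%, 59.6% and 61.3% in S34F. From the one at 23299158, 8 nt further downstream, it was 92.6%, 90.7% and 91.1% in wild type, compared with 89.2%, 94.2% and 85.2% in S34F. The lowest value from the second site, 85.2% (95% Clopper-Pearson interval 76.1% to 91.9%), lay above the highest from the first, 62.0% (57.7% to 66.1%). All 4 junctions were annotated. The second site had only 52 to 88 reads per library.

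On the plus strand of chromosome 1, the acceptors 40525005 and 40525008 were joined to 3 of the 5′ splice sites, by annotated junctions. They are 1 of 3 acceptor pairs with that many and the one on the plus strand; in the others, at 21106405 on chromosome 1 and 144669023 on chromosome 8, the wild-type gaps were 3.43 and 7.66 percentage points. From 40506456 the upstream share was 25.1% ± 4.8 in wild type and 31.1% ± 5.2 in S34F. From 40506474, 18 nt away, it was 25.8% ± 3.3 and 30.8% ± 3.1. From 40507166 it was 58.3% ± 2.5 and 55.4% ± 3.3 (n = 3 each). The first and second splice sites overlapped, and the third lay above both in each library. With multi-mapped reads added, the difference between S34F and wild type at the third turned from -2.82 to 5.21 percentage points. None of the 3 pairs passed the test between genotypes (edgeR adjusted p from 0.553 to 0.924).

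Further gaps were found on other chromosomes. At 44194996 and 44194999 on the plus strand of chromosome 6, the upstream share was between 7.0% and 13.7% in the 6 libraries from 44187520 and between 27.8% and 35.1% from 44193905. At 12727790 and 12727793 on chromosome 7 (plus strand), it was between 55.8% and 70.5% from 12726669 and between 79.2% and 82.7% from 12727354. Chromosome 12 had such a pair at 53862560 and 53862563 (plus strand), with 77.0% to 80.7% from 53861628 and 88.5% to 93.7% from 53861078. Of its 4 junctions, 1 was unannotated, the downstream one from 53861078, which is the 5′ splice site with the higher upstream share. Whether annotation bears on this gap was not tested. In these 3 acceptor pairs the libraries of one 5′ splice site did not overlap those of the other. Where the shares were extreme the gaps were small, as on the plus strand of chromosome 6 at 34210488 and 34210491, with means of 98.9% and 99.2% in wild type.

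**Figure D3:**
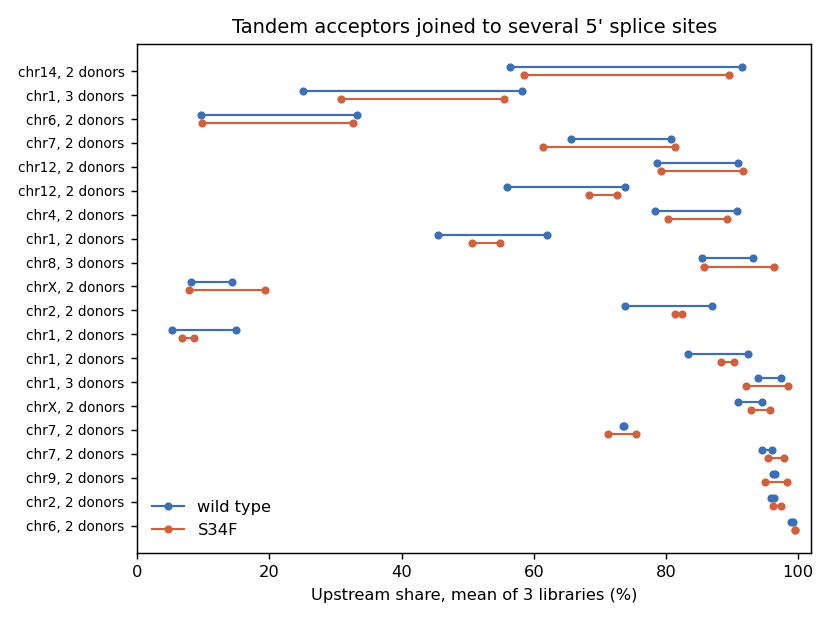
Mean upstream share (horizontal axis, %) at the 20 tandem acceptor pairs joined to 2 or 3 of the 5′ splice sites (called donors on the axis), ordered by the gap between their lowest and highest value; each line joins these 2 values in wild type and in S34F. The gap is 35.1 percentage points in wild type and 31.0 in S34F at the chromosome 14 pair on top.

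Sites reached by an unannotated junction were the major ones in a few pairs. The unannotated downstream site led in 5 of the 420 pairs with only the upstream site annotated, and the unannotated upstream site led in 3 of the 90 with only the downstream site annotated. On the plus strand of chromosome 9 at 96429358 and 96429361, the unannotated upstream site took 90%, 75.4% and 74.3% of the wild-type reads, against 77.8%, 64.9% and 83.1% of those in S34F. On the minus strand of chromosome 4 at 104059610 and 104059607, the annotated upstream site took only 33.7%, 39.6% and 25.9% in wild type, against 36.0%, 47.1% and 42.1% in S34F. The groups overlapped in both (edgeR adjusted p of 0.866 and 0.675).

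Between genotypes the 3 nt pairs differed little. A pair was called when its adjusted p, from edgeR's quasi-likelihood test with Benjamini-Hochberg adjustment over all 5684 pairs, was under 0.05 and the group means differed by at least 10 percentage points. Of the 1029 pairs, 1 was called, beside 2.85% of all pairs. Without the minimum difference, 2 passed, beside 6.53% of all pairs. At an unadjusted p under 0.05 there were 30 pairs, or 2.92%, beside 17.3% of all pairs. Of these 30, 19 had a higher and 11 a lower upstream share in S34F. Over all 5684 pairs, 211 were higher (3.71%) and 771 lower (13.6%) at this threshold. The split of the 3 nt pairs moved with the fit: it was 12 higher and 15 lower without wild-type replicate 2, 16 and 16 without wild-type replicate 3, 9 and 8 with the replicate block and 3 and 5 with DESeq2. Over the other alternatives more pairs were higher than lower. At 10 to 100 nt, 24.7% of 3643 pairs were below this threshold, and 161 of the 162 pairs called at any distance lay there. The threshold was passed by 21 of 381 pairs at 4 nt (5.51%) and 27 of 560 at 5 to 9 nt (4.82%). At both of these distances 0 pairs were called. Without the minimum difference, 1 passed at 4 nt and 3 at 5 to 9 nt. The difference between the distances was not tested.

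The S34F and wild-type libraries did not overlap in 9.91% of the 1029 pairs, beside 21.1% of all pairs. At 4 nt it was 11.5% and at 5 to 9 nt 10.7%, against 27.0% at 10 to 100 nt. The S34F libraries were the higher ones in 61 of the 1029 pairs, against 322 of all 5684 pairs (5.67%). They were the lower ones in 41 of the 1029, against 877 of all 5684 (15.4%). At 4 nt 17 pairs were higher and 27 lower, and at 5 to 9 nt 26 and 34. These splits were not tested. The median difference, S34F minus wild type, was 0.11 percentage points over the 3 nt pairs, -0.16 over all pairs and -0.36 over the pairs 10 to 100 nt apart. For the 3 nt pairs it was 0.36 without wild-type replicate 1 or S34F replicate 1, 0.0063 without wild-type replicate 2 and -0.03 without wild-type replicate 3, so that its sign rests on single libraries. With all libraries it was 0.81 over the 297 pairs whose lesser site took at least 20%, of which 180 were higher and 117 lower. The median absolute difference was 1.33 percentage points. Across the 1029 pairs the group means correlated with Pearson's r of 0.995 and Spearman's rho of 0.985, which describes pairs that share libraries and a wide range of levels. Over the 297 pairs alone Pearson's r was 0.962.

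**Figure D4:**
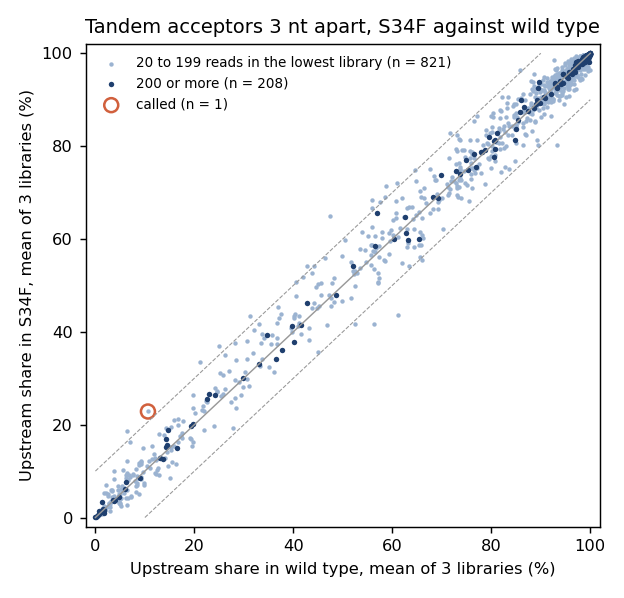
Mean upstream share in S34F (vertical axis, %) against that in wild type (horizontal axis, %) for the 1029 acceptor pairs 3 nt apart; dark points are the 208 pairs with at least 200 reads in each library, dashed lines mark differences of 10 percentage points, and the ring marks the called pair. The points follow the diagonal, and 23 lie on or outside the dashed lines, none of them among the dark points.

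The called pair lies on the plus strand of chromosome 9. There the 5′ splice site at 33332501 was joined to 33338504 by an unannotated junction or to 33338507 by an annotated one. Of its reads, the upstream site had 17 of 115, 14 of 144 and 8 of 109 reads in wild type. In S34F it had 30 of 143, 23 of 88 and 74 of 346. Its share was thus 14.8%, 9.72% and 7.34% in wild type, compared with 21.0%, 26.1% and 21.4% in S34F, so that the groups did not overlap. The share rose from 10.6% ± 3.8 to 22.8% ± 2.9 (n = 3 each). The log2 odds were higher by 1.27 (SE 0.37; adjusted p from edgeR = 0.0217). The closest libraries were wild-type replicate 1, with a 95% Clopper-Pearson interval of 8.85% to 22.6%, and S34F replicate 1, with 14.6% to 28.6%, and these intervals overlap. DESeq2 gave an adjusted p of 0.349 and limma on log2 odds 0.132. The call was also lost without wild-type replicate 2 (adjusted p = 0.0966) or 3 (0.121), without S34F replicate 2 (0.0866) or 3 (0.0698), and where pairs at most 9 nt apart were fitted on their own (0.304) or where no low-count filter was set (0.398).

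A second pair passed the adjusted p but not the minimum difference. It lies on the plus strand of chromosome 20, at 31413730 and 31413733. The downstream acceptor, joined by an unannotated junction, had 1 read in each wild-type library and 3, 7 and 9 in S34F. The upstream share fell by 1.57 percentage points, from 99.7% ± 0.076 to 98.1% ± 0.95 (n = 3 each). The log2 odds changed by -2.43 (SE 0.77; adjusted p from edgeR = 0.0412). It did not pass with DESeq2 (0.322), limma (0.114), multi-mapped reads added (0.0549), no low-count filter (0.829), pairs at most 9 nt apart alone (0.475) or the replicate block (0.0695), nor without any of wild-type replicates 1 to 3 or S34F replicates 2 and 3 (0.0765 to 0.157).

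The other 8 of the 10 pairs with the lowest p did not pass the adjustment. Over the 10, 5 were higher and 5 lower in S34F. The pair on the plus strand of chromosome 15 at 74885475 and 74885478 resembled the called one in having an unannotated junction to its upstream acceptor. Its upstream share was 8.89%, 7.81% and 2.56% in wild type, against 16.1%, 20.5% and 19.3% in S34F, on 39 to 88 reads per library. The groups did not overlap, with log2 odds of 1.63 (SE 0.58, edgeR adjusted p = 0.0814).

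The widest difference of the 10 was on the plus strand of chromosome 7, in an intron of 147 nt ending at 143078649 or 143078652. The annotated upstream site took 46.3%, 40.0% and 56.0% in wild type, compared with 70.8%, 61.2% and 63.0% in S34F, on 40 to 162 reads per library. The groups did not overlap (log2 odds 1.00, SE 0.39, edgeR adjusted p = 0.131). With more reads, the pair on the plus strand of chromosome 4 at 146025537 and 146025540, both annotated, had 90.3%, 88.9% and 90.02% in wild type, against 93.2%, 94.5% and 93.7% in S34F. Its groups stood apart by more than their spread, at 89.7% ± 0.74 and 93.8% ± 0.65 (n = 3 each), with an edgeR adjusted p of 0.0744. The adjusted p was under 0.05 when each site had to have at least 50 pooled reads (0.0226) and when both junctions had to be annotated (0.0414), and up to 0.829, with no low-count filter, over the other alternatives.

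In 4 more of the 10 pairs a rare downstream site had few reads and more of them in S34F. At 69111079 and 69111076 on the minus strand of chromosome 3, the downstream site had 0, 1 and 1 reads in wild type, compared with 5, 3 and 5 in S34F. At 390524 and 390527 on chromosome 20 (plus strand), it had 0, 1 and 0 against 4, 2 and 8. Chromosome 15 (plus strand) had such a site at 57545462, beside 57545459, where it had 1, 0 and 0 against 3, 2 and 7. At 46348035 and 46348038 on chromosome 1 (plus strand), it had 0 of 56, 0 of 50 and 0 of 36 reads in wild type, which allows shares of up to 5.36%, 6.00% and 8.33%, and 5, 0 and 6 reads in S34F. None of the 4 passed (edgeR adjusted p from 0.0773 to 0.122), though the chromosome 20 pair did without wild-type replicate 2 (0.0449). The reverse was seen on the plus strand of chromosome 15 at 69745985 and 69745988, where the downstream site had 5, 5 and 6 reads in wild type, against 1, 0 and 3 in S34F out of 16278 to 39027 (edgeR adjusted p = 0.0537). That pair's adjusted p was under 0.05 with the replicate block (0.0460), with edgeR's newer dispersion estimate (0.0498) and without wild-type replicate 1 (0.0375), and up to 0.829, with no low-count filter, over the other alternatives.

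**Figure D5:**
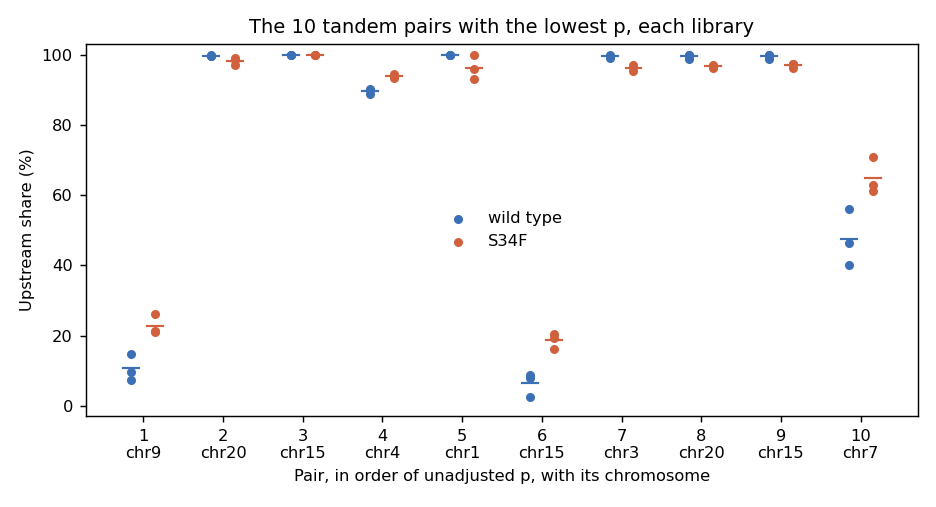
Upstream share (vertical axis, %) in each library for the 10 tandem pairs with the lowest unadjusted p, in that order, with bars at the group means; blue is wild type and red S34F. The called chromosome 9 pair is the first, and the chromosome 7 pair, with means of 47.4% and 65.0%, is the last.

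Of the 30 pairs with an unadjusted p under 0.05, 15 had a lesser site with under 5% of the pooled reads. In 18 the lesser site had a larger share in S34F and in 12 a smaller one. By annotation, the 511 pairs with both sites annotated gave 13 of the 30 (2.54% of the 511), with 8 higher and 5 lower in S34F. The 420 with only the upstream site annotated gave 12 (2.86%), with 6 higher and 6 lower. The 90 with only the downstream site annotated gave 5 (5.56%), all higher. The differences between these classes were not tested.

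Large differences were mostly seen at few reads. The means differed by at least 10 percentage points in 23 pairs, or 2.24%, beside 4.84% of all pairs. In S34F 18 of the 23 were higher and 5 lower, and 9 had an unadjusted p under 0.05. In 19 of the 23 the shallowest library had under 50 reads. The lowest difference, -17.7 percentage points, was on the plus strand of chromosome 11 at 61548428 and 61548431, a pair singled out after its values were seen. Its shares were 53.1%, 63.9% and 66.7% in wild type, compared with 50%, 39.3% and 41.3% in S34F on 28 to 63 reads, and it did not pass (edgeR adjusted p = 0.234).

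Deeply read pairs differed less between genotypes, but they also had a rarer lesser site, with a median of 2.15% of the reads against 13.7% in the 350 pairs with under 50 reads in a library. Among the 208 pairs with at least 200 reads in each library, 2 differed by 5 percentage points or more and 23 by 2 or more. In 36 of the 208, the pooled upstream share lay between 20% and 80%. Their median absolute difference was 1.67 percentage points, against median SDs of 2.27 in wild type and 2.56 in S34F, and 21 were higher and 15 lower in S34F. The standard error of their log2 odds was between 0.17 and 0.26, which sets how small a change could have been seen. The lowest adjusted p among the 36 was 0.277, on the minus strand of chromosome 1 at 35642076 and 35642073. That pair had 64.5%, 51.2% and 54.98% in wild type, against 64.1%, 70.2% and 62.6% in S34F, so that wild-type replicate 1 lay within the S34F values.

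Among the pairs with at least 100 reads in each library and groups that did not overlap, the 6 with the widest differences were between 4.15 and 7.55 percentage points in size. At 151208977 and 151208980 on chromosome 6 (plus strand), the share was 56.7%, 52.5% and 52.4% in wild type, compared with 63.4%, 59.2% and 61.8% in S34F. At 242035333 and 242035336 on chromosome 1 (plus strand), it was 68.9%, 72.1% and 61.7% against 75%, 76.1% and 73.8%. In the opposite direction, on the minus strand of chromosome 1 at 109888504 and 109888501, it was 66.7%, 64.5% and 65.1% against 62.1%, 58.2% and 59.6%. Across the 6, 4 were higher and 2 lower in S34F. None passed (edgeR adjusted p from 0.311 to 0.689).

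Libraries of 1 genotype differed by somewhat more than read counting gives. For each pair, the chi-square of the 3 libraries' shares was divided by its degrees of freedom, where counting error alone gives a mean of 1. The mean was 1.24 in wild type and 1.23 in S34F over the 3 nt pairs, and 1.46 and 1.24 over the pairs 10 to 100 nt apart. Among the 297 pairs whose lesser site took at least 20%, the median SD over the libraries was 4.62 percentage points in wild type and 4.18 in S34F.

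Intron length went with neither measure by much. The 343 shortest introns, up to 592 nt, had a median upstream share of 85.1% in wild type, the 343 in the middle 86.7% and the 343 longest, from 2217 nt up, 86.3%. The share of pairs whose lesser site took at least 20% was 27.7%, 26.5% and 32.4%. The median differences between genotypes were 0.18, 0.13 and 0.05 percentage points.

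At the limits of the rule, 15 members had exactly 20 reads in their shallowest library and 24 had exactly 10 pooled reads on the lesser site. Just inside, the pair on the minus strand of chromosome 10 at 13489320 and 13489317 had 20 to 44 reads per library and means of 37.5% and 43.9% in wild type and S34F. Just outside, the pair on the minus strand of chromosome 1 at 5965844 and 5965841 had 19 to 48 reads and means of 36.5% and 33.2%. With 10 pooled reads on the upstream site, the pair on the plus strand of chromosome 1 at 27087871 and 27087874 stood at 1.47% and 1.43%. With 9 on the downstream site, the pair on the minus strand of chromosome 1 at 41626571 and 41626568 was left out, at 97.6% and 97.4%.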

How the data were processed

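The libraries were TruSeq preparations of poly(A)+ RNA, read from both ends on a HiSeq2000, per the labels' protocols. The authors deposited 1 table of 9 columns per library. Reads were aligned with STAR to hg19, per the submitters' processing notes; version, annotation and filters are not given in the sources used here. The deposited values are raw counts of uniquely mapped and of multi-mapped reads per junction. The largest overhang, in nt, is another deposited column.

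Junctions with motif codes 1 to 6 were joined over the 6 tables, with 0 for a missing one, which gave 779104. Of 6556 candidate pairs 3 nt apart, 4532 had under 20 reads in some library, and 995 others had under 10 pooled reads on a site. All pairs at most 100 nt apart were fitted together with edgeR 4.0.16 (R 4.3.3; quasi-likelihood F-test, robust, legacy mode) on 2 counts per library, with an intercept per library, the site, and the site by S34F interaction. The intercept removes depth and transcript abundance. The standard error is the coefficient's size divided by the square root of F. Intervals are 95% Clopper-Pearson and, like the limit of 3 counts allowed by a count of 0, cover counting error only. DESeq2 1.42.0, limma 3.58.1 (0.5 reads added) and other settings were alternatives. The fit was tested on simulated data. Python 3.11.15, pandas 2.3.3, numpy 2.4.6, scipy 1.17.1 and matplotlib 3.10.9 were used.

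Junction counts of the libraries of 1 group differed beyond sampling (chi-square per degree of freedom from 4.70 to 14.7). Each library was counted as a sample, though such counts do not show that the libraries came from separate cultures. For the upstream shares of the 3 nt pairs, the chi-square per pair was lower. It was 1.07 between wild-type replicates 2 and 3 (chi-square test p = 0.0569) and up to 1.39, between wild-type replicates 1 and 3. Multi-mapped reads took 2.61% ± 0.16 of the reads on the 3 nt pairs in the wild-type libraries, next to 2.84% ± 0.15 in those of S34F (n = 3 each). The members and lists were chosen with earlier results of these data known. Pairs named by a rule are those called, the 10 with the lowest p, the 6 with the widest difference among non-overlapping groups of at least 100 reads, the 6 most read, the 3 nearest 50% with at least 200 reads, those at the limits of the rule and the acceptor pair with the most 5′ splice sites (of 3 tied pairs, the one on the plus strand, which sorts first); some of them are given by their range. The further pairs with several 5′ splice sites, with an unannotated major site, with large or deep differences on chromosomes 11 and 1, with 3 acceptors in a row and with GC-AG introns were picked after their values were seen.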

Additional observations from a re-analysis of the deposited data

How the results depend on the processing

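The single call among the 3 nt pairs was kept, as the same chromosome 9 pair, with edgeR's newer dispersion estimate, the replicate block, at least 50 reads per library, at least 50 pooled reads per site, multi-mapped reads added, the overhang minimum, and reads summed over 5′ splice sites. No 3 nt pair was called with DESeq2 (0 calls, 8 at an unadjusted p under 0.05), limma (0, 34), at least 100 reads per library (0, 12), no low-count filter (0, 54), both junctions annotated (0, 14) or pairs at most 9 nt fitted on their own with edgeR (0, 40). The chromosome 9 pair is not in the fits with 100 reads or with both junctions annotated. With no minimum difference 2 passed, and with 20 percentage points 0. Leaving out each library gave 0 to 1 calls and 24 to 44 pairs at an unadjusted p under 0.05. Without wild-type replicate 2 the call was another pair, on the plus strand of chromosome 13 at 115089262 and 115089265 (-17.8 percentage points, edgeR adjusted p = 0.0328). The replicate block gave 1 call and 17 pairs at an unadjusted p under 0.05. Over all fitted pairs, deviations of libraries with the same number had correlations of -0.05, -0.03 and -0.04. Those with different numbers had correlations between 0.0035 and 0.029. Counting error enters these deviations, so the values cannot tell whether the numbers mark a shared culture or preparation. The median difference was between -0.03 and 0.36 percentage points without single libraries, which includes a change of sign. The SD of the wild-type libraries' median upstream shares, 0.962, is another measure and sets no scale for these moves. Of 31 named pairs, 4 changed sign in leave-one-out fits. Their differences then lay between -3.13 and 0.93 percentage points (chromosome 10), -0.036 and 4.90 (chromosome 14), -0.00070 and 0.0058 (chromosome 11) and -0.019 and 0.0064 (chromosome 9, minus strand). With multi-mapped reads 1 changed sign (5.21, chromosome 1). The causes were not tested. The median absolute difference was 2.48 percentage points in the 350 pairs with under 50 reads in a library and 0.34 in those with at least 200, of which 38.9% and 17.3% had a lesser site of at least 20%; the part of depth and of level was not tested.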

Other observations

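In 3 introns, 3 acceptors followed each other at steps of 3 nt, so that the middle site belonged to 2 pairs. The chromosome 1 intron (plus strand) ran from 212981191 to 212985589, 212985592 and 212985595. The first, middle and last sites took 59.2%, 38.4% and 2.33% of the wild-type reads and 63.8%, 33.6% and 2.64% of the S34F reads (means, n = 3 each). On chromosome 5 (minus strand, from 134705095 to 134696298, 134696295 and 134696292), the middle site led with 60.2% ± 1.5 in wild type and 58.6% ± 2.9 in S34F. The first took 39.6% ± 1.7 and 41.1% ± 2.8. On chromosome 16 (plus strand, from 2820467 to 2820604, 2820607 and 2820610), the first site took 94.3% ± 0.64 and 93.2% ± 2.7. The first site's libraries overlapped between genotypes in each of the 3 introns.

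The 7 GC-AG introns, whose 5′ splice site departs from the usual GT, covered a wide range of upstream shares. The lowest was on the plus strand of chromosome 11 at 31625311 and 31625314, with 15.8%, 16.9% and 26.5% in the wild-type libraries, against 17.2%, 19.7% and 12.1%. The other 6 had wild-type means between 71.8% and 93.7%. None had an unadjusted p under 0.05 in edgeR (adjusted p from 0.721 to 0.973).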
